A study of Gallus gallus with 72 samples.

Results

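The genes described here encode the substrate adaptors of cullin-RING ubiquitin ligases. They were taken as every gene of the count table whose symbol is KLHL, KBTBD, ASB, FBXO, FBXL or FBXW followed by a number, with FBXO32 left out, and 99 of the 12046 genes met that rule. The set held 31 KLHL, 7 KBTBD, 16 ASB, 24 FBXO, 15 FBXL and 6 FBXW genes. RNA had been sequenced from breast muscle of male broiler chickens in 72 libraries, 6 in each of 12 groups: crossbred birds, Cornish purebreds and White Plymouth Rock purebreds, each at embryonic day 17 (E17) and at 1, 21 and 42 days after hatching (D1, D21 and D42). The 2 purebreds are the parents of the crossbred, and the labels name no treatment and no altered gene in any group. The source label reads breast muscle myofibroblasts, while the extraction protocol describes frozen muscle tissue. Nothing in the labels says that the 6 libraries of a group came from separate birds, so each p-value measures only the spread between these libraries, which may be partly technical.

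Cullin-RING ligases mark proteins with ubiquitin, and the adaptor decides which protein is marked. KLHL and KBTBD proteins bind cullin 3 directly through a BTB domain, ASB proteins bind cullin 5 through elongins B and C, and F-box proteins (FBXO, FBXL and FBXW) bind cullin 1 through SKP1. Skeletal muscle is known for several adaptors that few other tissues make, and some of them act on filament proteins of the sarcomere or cause muscle disease when mutated in humans.

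Library totals had a median of 54464688 counts; crossbred D1 library 1 was the shallowest (16673085) and the deepest library had 75670549. Of the 99 adaptor genes, 92 had a count in every library, and 6 averaged under 1 CPM, the count scaled to library size. All 99 passed the filter on low counts over the 72 libraries, as they did at E17 and D1, while 97 passed at D21 and 96 at D42. Of 14 markers of skeletal muscle fibres, 10 were in the table and none was at 0; 9 of them had medians of at least 1263 CPM (MYBPC2), and PVALB was low, at a median of 1.06 CPM. The D42 libraries numbered 3 stood apart in the summed CPM of the 99 adaptors, which came to 9248 in crossbred, 10882 in Cornish and 10295 in White Plymouth Rock muscle, against 4860 to 7976 in the other D42 libraries. Stage calls of named genes that were lost without these libraries are given beside their values.

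The first question was how adaptor transcripts changed from late embryo to D42. Levels are CPM after TMM scaling, and each stage holds 18 libraries. Stages were compared with edgeR's quasi-likelihood test over all 72 libraries, averaged over the 3 breeds, with Benjamini-Hochberg adjustment over the 11932 genes tested and a threshold of 0.05. In the step from E17 to D1, 52 adaptors rose and 26 fell, which is 78 of 99, while 73% of all genes tested passed (37.3% higher and 35.6% lower). Between D1 and D21, 35 were higher and 41 lower at D21 (76 of 99, against 73.2% of all genes, 36.4% higher and 36.8% lower). Between D21 and D42, 24 were higher and 6 lower at D42 (30 of 99, against 32.6% of all genes, 17.1% higher and 15.6% lower). Over the whole span, 50 were higher and 34 lower at D42 than at E17 (84 of 99, against 81.2% of all genes, 40% higher and 41.2% lower). The counts of adaptors called were therefore close to the background at every step. The split by direction leaned upwards at D1 over E17, at D42 over D21 and at D42 over E17. Stages separated completely, with no overlap of their 18 libraries, for 14 adaptors at D1 over E17 (16.8% of all genes did), 14 at D21 over D1 (13%), 0 at D42 over D21 (0.109%) and 38 at D42 over E17 (29.8%). The median log2 fold change of the 99 adaptors was 0.21 at D1 over E17 and 0.19 at D42 over E17, and over all genes tested it was 0.01 and -0.02. In bulk tissue, a change in the share of a cell type and a change in RNA per cell cannot be told apart.

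**Figure D1:**
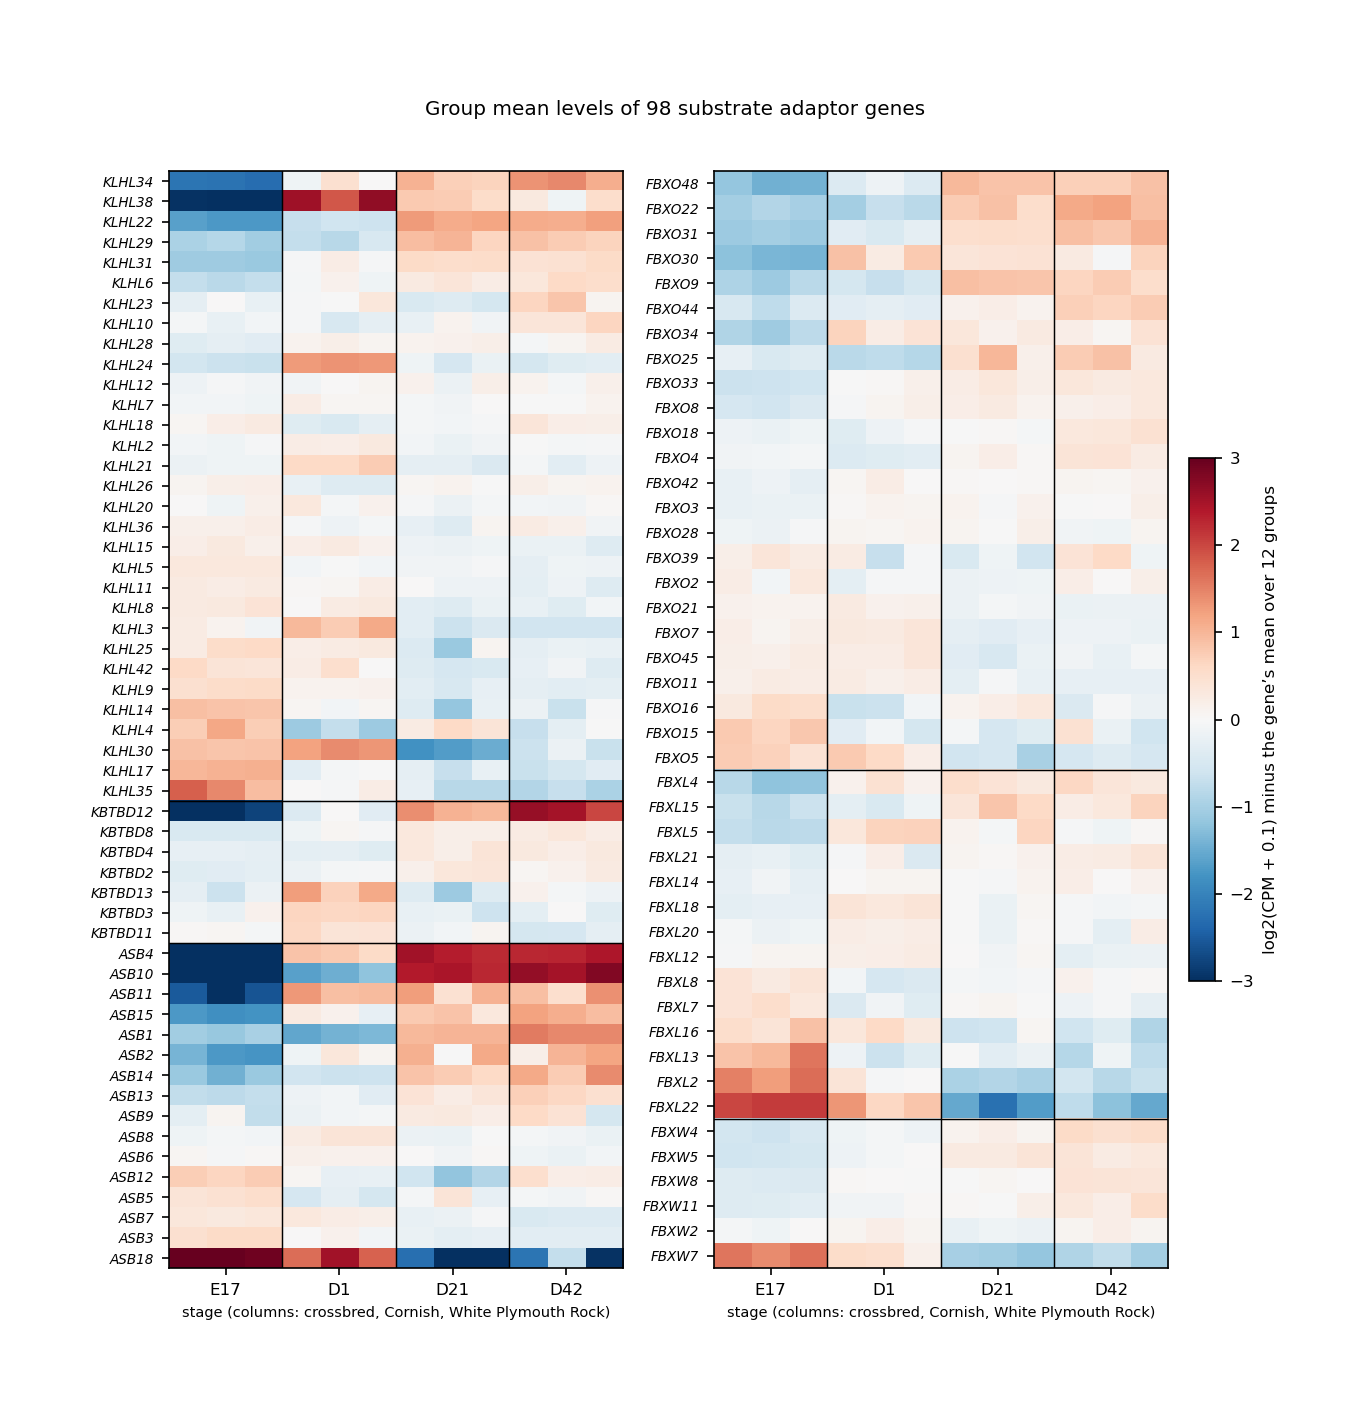
Group mean levels of 98 of the 99 adaptor genes, 1 row per gene, as log2(CPM + 0.1) minus the gene's mean over the 12 groups; within each stage the columns are crossbred, Cornish and White Plymouth Rock, and colours stop at 3 log2 units either way. Rows are ordered within each family by D42 level against E17 level, and columns of the same stage look alike across breeds while stages differ.

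Adaptors were lowest at E17 more often than at other stages. By the mean over 18 libraries, 45 of 99 had their lowest level at E17 (45.5%, against 34% of all genes). The lowest level fell at D1 for 14 (14.1%, against 22.9%), at D21 for 25 (25.3%, against 17.6%) and at D42 for 15 (15.2%, against 25.5%). Their highest level fell at E17 for 29 (29.3%, against 34.1%) and at D1 for 26 (26.3%, against 24.9%). It fell at D21 for 11 (11.1%, against 16.4%) and at D42 for 33 (33.3%, against 24.6%). The D42 means include the libraries numbered 3. With each breed tested on its own, 52 of 99 adaptors passed with the same sign in all 3 breeds at D1 over E17 (39 higher and 13 lower, where 41.4% of all genes did), 38 at D21 over D1 (18 and 20, against 40.3%) and 65 at D42 over E17 (40 and 25, against 56.7%). At D42 over D21 only KLHL30 and ASB12 did, both higher, where 1.68% of all genes passed in all 3 breeds. Without the D42 libraries numbered 3, 1 adaptor did, and none did when only those stages were fitted. More did with other size factors, with no filter and with DESeq2. At D21 over D1 and D42 over D21 these shares were close to the background. No adaptor passed in opposite directions in different breeds at any of these 4 comparisons.

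**Figure D2:**
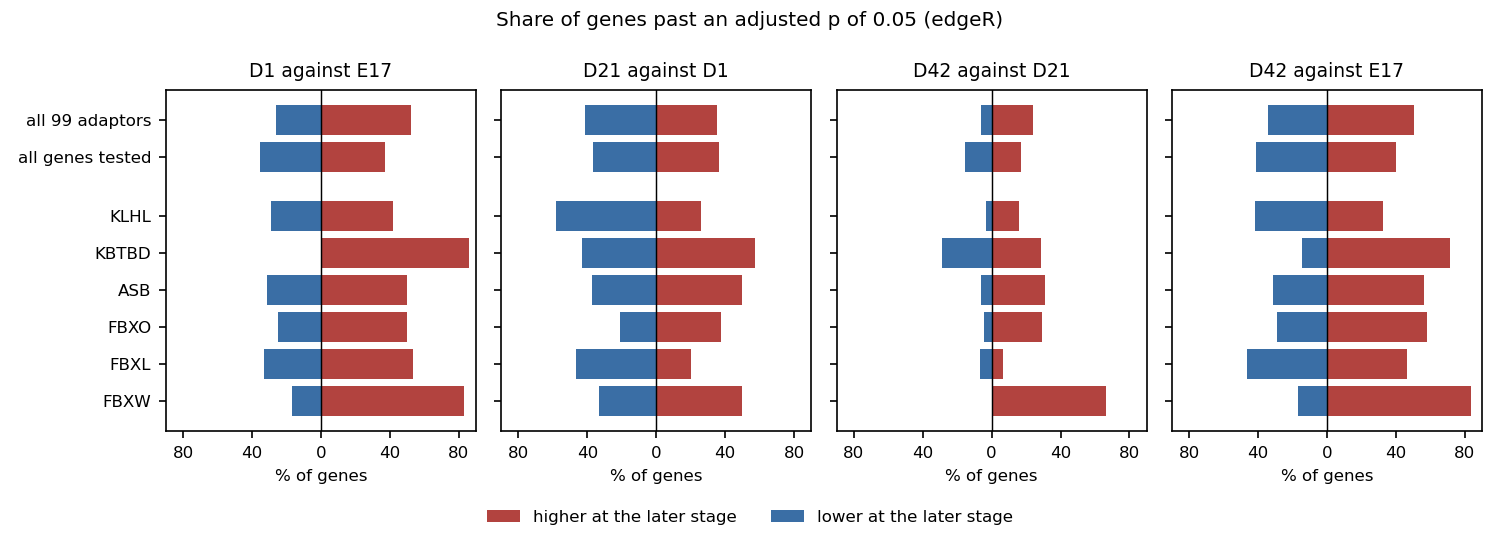
Percentage of genes higher (red, right) and lower (blue, left) at the later stage with an adjusted p under 0.05, for all 99 adaptors, for all 11932 genes tested and for each adaptor family. At D1 over E17, 6 of 7 KBTBD and 5 of 6 FBXW genes were higher (37.3% of all genes were). At D21 over D1, 18 of 31 KLHL genes were lower (36.8% of all genes were).

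Among the cullin 5 adaptors, ASB4 (GRCg7b chromosome 2, 23785715 to 23794930), known in mice from the growth of embryonic vessels, showed the largest rise between E17 and D42. Over the 18 libraries of a stage, ASB4 ran (lowest, median and highest) through 0.146, 0.487 and 1.25 CPM at E17, 22.6, 49.0 and 74.2 at D1, 81.6, 139 and 212 at D21 and 70.1, 142 and 219.7 at D42. The E17 libraries did not overlap those of any later stage. The step to D1 had a log2 fold change of 6.41 ± 0.22, adjusted p = 1.63e-35, that from D1 to D21 1.63 ± 0.17, adjusted p = 3.47e-13, and D42 against D21 -0.04 ± 0.17, adjusted p = 0.884. Endothelial and pericyte markers, 12 of 12 in the table and none at 0, had medians of summed CPM of 1211, 1406, 2583 and 2283 from E17 to D42; their part in the values of ASB4 was not tested. ASB10 followed with most of its rise after hatching. ASB10 had 0.496, 1.13 and 2.30 CPM at E17, 1.68, 5.13 and 11 at D1, 42.1, 73.7 and 162 at D21 and 49.6, 88.2 and 151 at D42 (lowest, median and highest library). Its log2 fold change was 2.23 ± 0.21, adjusted p = 9.6e-15 at D1 over E17 and 3.81 ± 0.21, adjusted p = 1.03e-24 at D21 over D1, so that the D21 libraries lay wholly above the D1 libraries, while D1 and E17 overlapped.

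ASB11, which in zebrafish promotes the turnover of a Notch ligand, passed at D1 and at no later step. The lowest, median and highest ASB11 values were 0.509, 1.90 and 8.25 CPM at E17, 18.1, 36.4 and 77.3 at D1, 19.3, 35.3 and 61.8 at D21 and 11.2, 31.1 and 89.1 at D42. All D1 libraries lay above all E17 libraries. Its log2 fold change at D1 over E17 was 4.00 ± 0.23, adjusted p = 9.02e-24, and D21 against D1 gave -0.13 ± 0.20, adjusted p = 0.575. ASB15, which in mouse myoblasts affects protein synthesis and differentiation, rose at each of the first 2 steps. For ASB15 the values were 6.87, 10.3 and 17.6 CPM at E17, 3.72, 40.7 and 57.4 at D1, 20.2, 52.8 and 106 at D21 and 35.3, 78.0 and 166 at D42, each time as lowest, median and highest. Neighbouring stages overlapped, and D42 did not overlap E17. Its changes were 1.85 ± 0.18, adjusted p = 1.69e-14 at D1 over E17 and 0.61 ± 0.17, adjusted p = 0.0013 at D21 over D1; D42 against D21 gave 0.40 ± 0.17, adjusted p = 0.0612, a value that passed with other size factors, with no filter, with DESeq2 and with the replicate number as a block (adjusted p = 0.0381 to 0.0489). ASB14 rose at all 3 steps, by 0.62 ± 0.11, adjusted p = 5.08e-07, 1.35 ± 0.11, adjusted p = 5.97e-18 and 0.37 ± 0.10, adjusted p = 0.00488. At these steps APPL1, which overlaps it, had 0.16 ± 0.06, -0.16 ± 0.06 and 0.16 ± 0.06. DNAH12, which also overlaps it, had -1.46 ± 0.35, 0.67 ± 0.35 and 0.71 ± 0.34.

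ASB2, an adaptor for filamins and desmin, spread widely within stages. Over the 18 libraries of a stage, ASB2 ran (lowest, median and highest) through 56.6, 84.5 and 125 CPM at E17, 100.4, 261 and 568 at D1, 76.6, 385 and 1083 at D21 and 63.0, 355 and 1444 at D42. At D42 the values reached from the level of E17 libraries to 1444 CPM in White Plymouth Rock library 3. It rose at D1 (1.72 ± 0.26, adjusted p = 4.39e-08) and at D21 (0.64 ± 0.26, adjusted p = 0.0233), and at D42 the change over D21 was 0.06 ± 0.26, adjusted p = 0.873. At D21 over D1 its log2 fold change was 1.20 in crossbred, -0.34 in Cornish and 1.06 in White Plymouth Rock libraries. FAM181A, whose span on the reference overlaps that of ASB2, had log2 fold changes of 1.68 ± 0.27 and 0.75 ± 0.27 at the same steps, and since the strand setting of the counting is not stated, reads of the 2 genes cannot be told apart here.

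Other ASB genes moved the opposite way or in 2 directions. ASB18 (chromosome 7, 5232748 to 5246681) was counted in all E17 and D1 libraries and was near 0 later. ASB18 had 8.34, 25.1 and 46.8 CPM at E17, 0.855, 7.43 and 47.2 at D1, 0, 0.0992 and 1.73 at D21 and 0, 0 and 6.07 at D42 (lowest, median and highest library). It had no count in 7 of the 18 libraries at D21 and in 11 of 18 at D42. Its log2 fold change was -1.36 ± 0.48, adjusted p = 0.00942 at D1 over E17 (DESeq2 gave an adjusted p of 0.0665), -6.41 ± 0.68, adjusted p = 6.03e-13 at D21 over D1, and 2.21 ± 0.74, adjusted p = 0.0163 at D42 over D21. The last value rested on few libraries, the highest of them Cornish library 2 at 6.07 CPM, and missed the threshold when only those stages were fitted (adjusted p = 0.0687). ASB12 dipped and returned. The lowest, median and highest ASB12 values were 45.1, 55.2 and 69.5 CPM at E17, 8.27, 29.4 and 61.7 at D1, 3.48, 17.6 and 44.3 at D21 and 23.6, 43.4 and 93.6 at D42. Every E17 library lay above every D21 library, and the other pairs of stages overlapped. It fell by 0.86 ± 0.20, adjusted p = 0.000107 at D1 and by 0.75 ± 0.20, adjusted p = 0.000671 at D21, and rose by 1.20 ± 0.20, adjusted p = 4.35e-06 at D42. Its level at D42 against E17 (-0.41 ± 0.20, adjusted p = 0.0507) passed in 4 of the alternative fits, one of them without the D42 libraries numbered 3 (adjusted p = 0.00864).

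ASB5, a muscle-enriched gene first described in growing arteries of rabbits, fell between E17 and D1 (-0.90 ± 0.10, adjusted p = 3.48e-12) and partly returned at D21 (0.47 ± 0.10, adjusted p = 2.95e-05). ASB8 averaged 20.0 ± 2.19 CPM at E17, 27.2 ± 4.37 at D1, 19.6 ± 2.37 at D21 and 19.6 ± 2.65 at D42 (SD, n = 18), with a log2 fold change of 0.44 ± 0.07, adjusted p = 1.95e-08 at D1 over E17 and -0.48 ± 0.07, adjusted p = 2.87e-09 at D21 over D1. ASB1, which is not restricted to muscle, fell slightly at D1 (-0.39 ± 0.09, adjusted p = 0.000195) and then rose steeply: lowest, median and highest values were 25.0, 32.1 and 43.5 CPM at E17, 18.8, 23.1 and 30.8 at D1, 109.5, 132 and 174 at D21 and 128, 168 and 365 at D42. The D21 libraries lay wholly above the D1 libraries (2.45 ± 0.10, adjusted p = 3.37e-32), and D42 lay above D21 on average (0.47 ± 0.09, adjusted p = 6.03e-05). ASB13 rose at all 3 steps, with 1.37 ± 0.10, adjusted p = 1.64e-20 between D42 and E17. Its call at D42 over D21 was lost without the D42 libraries numbered 3. ASB9, which targets creatine kinase B in mammals, averaged 2.06 ± 0.837 CPM at E17, 2.34 ± 1.10 at D1, 3.02 ± 0.996 at D21 and 3.02 ± 1.52 at D42 (SD, n = 18) and passed at no single step. Over all 16 ASB genes, 8 rose and 5 fell at D1 (37.3% and 35.6% of all genes did). At D21 over D1, 8 were higher and 6 lower (36.4% and 36.8% of all genes). At D42 over D21, 5 were higher and 1 lower (17.1% and 15.6% of all genes). ASB7 was the lower one (-0.28 ± 0.06, adjusted p = 0.00013).

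**Figure D3:**
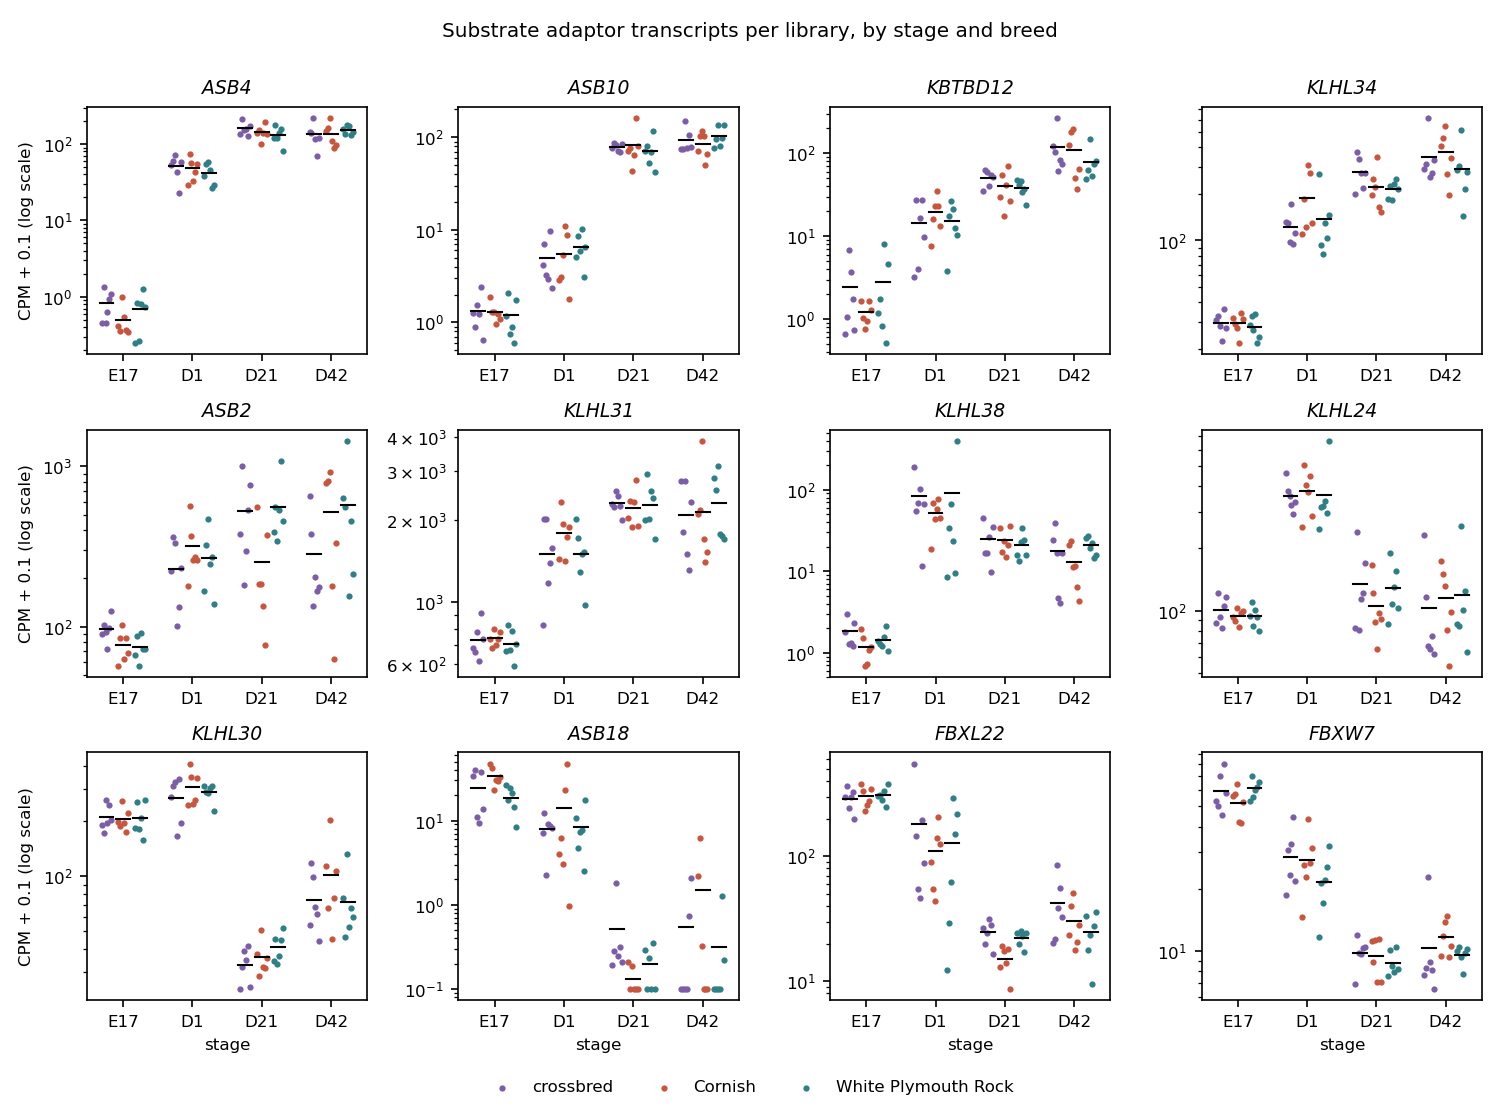
Levels of 12 adaptor genes in each of the 72 libraries on a log scale (CPM + 0.1), by stage; points are libraries, coloured by breed, and bars are group means of 6 libraries. The median of ASB4 is 0.487 CPM at E17, 49.0 at D1, 139 at D21 and 142 at D42, KLHL38 peaks at D1, and ASB18 reaches 0 in several D21 and D42 libraries.

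Of the cullin 3 adaptors, KLHL31, which mice need for normal skeletal muscle and which promotes the turnover of filamin C, rose until D21. For KLHL31 the values were 587, 719 and 919 CPM at E17, 829, 1554 and 2320.1 at D1, 1695, 2264 and 2933 at D21 and 1311, 1952 and 3861 at D42, each time as lowest, median and highest. Every D42 library lay above every E17 library (1.57 ± 0.11, adjusted p = 3.17e-20), and the steps were 1.13 ± 0.11, adjusted p = 4.76e-14 at D1 and 0.50 ± 0.11, adjusted p = 5.02e-05 at D21. The highest D42 value was Cornish library 3. KLHL34 rose at all 3 steps. Over the 18 libraries of a stage, KLHL34 ran (lowest, median and highest) through 21.7, 28.8 and 36.2 CPM at E17, 82.3, 129 and 308 at D1, 152, 224 and 369 at D21 and 143, 296 and 617 at D42. The D1 libraries lay wholly above E17, and later neighbouring stages overlapped. Its change at D42 over D21 was 0.50 ± 0.14, adjusted p = 0.0058, and without the D42 libraries numbered 3, which held 514 to 617 CPM, it was 0.30 (adjusted p = 0.0805). At D1 over E17 it was 2.35 ± 0.15, adjusted p = 8.21e-22. The overlapping gene CNKSR2 moved the other way at each of these steps (-0.37 ± 0.12 and -1.01 ± 0.12).

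KBTBD12 (chromosome 12, 9739827 to 9799918) had the largest rise among the KLHL and KBTBD genes between E17 and D42. KBTBD12 had 0.411, 1.14 and 8.03 CPM at E17, 3.14, 16.3 and 34.8 at D1, 17.5, 41.5 and 70.6 at D21 and 37.1, 77.8 and 268 at D42 (lowest, median and highest library). Neighbouring stages overlapped, and D42 did not overlap E17. It changed by 3.08 ± 0.32, adjusted p = 5.2e-13, 1.39 ± 0.30, adjusted p = 3.68e-05 and 1.23 ± 0.30, adjusted p = 0.000872 over the 3 steps, and D42 against E17 gave 5.70 ± 0.36, adjusted p = 1.03e-22. MGLL, which overlaps it, had 1.74 ± 0.10, -0.86 ± 0.10 and 0.46 ± 0.10 at the same steps. KLHL22, which acts on the mitotic kinase PLK1 and on the nutrient sensing protein DEPDC5 in human cells, averaged 9.88 ± 1.01 CPM at E17, 20.6 ± 3.93 at D1, 73.1 ± 12.2 at D21 and 71.1 ± 15.7 at D42 (SD, n = 18). It rose by 1.06 ± 0.09, adjusted p = 2.52e-16 at D1 and by 1.83 ± 0.09, adjusted p = 4.52e-27 at D21, and at both steps no library of the later stage overlapped the earlier one. KLHL29 rose mainly at D21 (1.55 ± 0.10, adjusted p = 4.55e-22). ATAD2B, which overlaps KLHL29, had -0.21 ± 0.06 at that step.

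Another group of KLHL and KBTBD genes was highest at D1, among them KLHL38 (chromosome 2, 137108053 to 137115198). The lowest, median and highest KLHL38 values were 0.587, 1.21 and 2.93 CPM at E17, 8.42, 56.6 and 398 at D1, 9.59, 21.6 and 44.4 at D21 and 4.01, 16.7 and 39.1 at D42. No E17 library overlapped a D1 library (5.74 ± 0.38, adjusted p = 5.67e-21); D21 was lower than D1 (-1.65 ± 0.32, adjusted p = 5.4e-06), and the D1 maximum was White Plymouth Rock library 6. KLHL24, an adaptor for intermediate filament proteins in human skin and heart, was also highest at D1. Unlike those of KLHL38, its D21 and D42 libraries overlapped those of E17. For KLHL24 the values were 79.4, 94.2 and 122 CPM at E17, 249, 337 and 661 at D1, 65.4, 111 and 239.5 at D21 and 54.0, 92.5 and 257 at D42, each time as lowest, median and highest. Its D1 libraries lay wholly above those of E17 (1.93 ± 0.17, adjusted p = 2.09e-16) and of D21 (D21 over D1: -1.59 ± 0.16, adjusted p = 2.15e-13). KBTBD13, mutated in a form of human nemaline myopathy, averaged 13.9 ± 3.72 CPM at E17, 36.7 ± 8.81 at D1, 11.8 ± 3.56 at D21 and 17.5 ± 6.23 at D42 (SD, n = 18). Its D1 libraries also overlapped neither neighbouring stage, with 1.40 ± 0.12, adjusted p = 8.92e-16 at D1 over E17 and -1.65 ± 0.13, adjusted p = 1.12e-18 at D21 over D1. D42 against E17 gave 0.34 ± 0.12, adjusted p = 0.00875, which without the D42 libraries numbered 3 was 0.16 (adjusted p = 0.184). RASL12, which overlaps KBTBD13, had -0.04 ± 0.18 at D1 over E17, -1.15 ± 0.18 at D21 over D1 and -1.08 ± 0.18 at D42 over E17. KLHL21, which binds aurora B in dividing human cells, averaged 317 ± 49.2 CPM at E17, 553 ± 177 at D1, 281 ± 34.5 at D21 and 310.3 ± 101 at D42 (SD, n = 18). It was higher at D1 than at E17 (0.80 ± 0.12, adjusted p = 2.4e-08) and lower at D21 than at D1 (-0.98 ± 0.12, adjusted p = 9.45e-11). KLHL3, which targets WNK kinases, averaged 15.3 ± 1.95 CPM at E17, 28.4 ± 15.0 at D1, 10.5 ± 1.84 at D21 and 9.67 ± 1.98 at D42 (SD, n = 18). KLHL3 was also higher at D1 than at E17 (0.89 ± 0.14, adjusted p = 9.29e-08) and lower at D21 than at D1 (-1.43 ± 0.14, adjusted p = 6.61e-14). Its span on the reference overlaps those of MYOT, NPY6R and RBMXL3, whose values at these steps are not given here.

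KLHL30 (chromosome 9, 4485519 to 4489183) combined a peak at D1 with a deep fall. Over the 18 libraries of a stage, KLHL30 ran (lowest, median and highest) through 158, 197 and 262 CPM at E17, 165, 296 and 412 at D1, 24.1, 35.3 and 52.0 at D21 and 44.2, 67.7 and 202 at D42. No D21 library reached the level of any D1 library (-2.99 ± 0.14, adjusted p = 1.55e-28), and D42 was higher than D21 (1.17 ± 0.13, adjusted p = 4.45e-10). This rise also passed in each breed, but not in every breed when only those stages were fitted. KLHL4 fell at D1 (-1.90 ± 0.19, adjusted p = 8.75e-14) and rose at D21 (1.43 ± 0.19, adjusted p = 7.19e-10). KLHL17, an actin-binding adaptor of neurons in mammals, fell at D1 (-1.17 ± 0.13, adjusted p = 1.43e-12) and stood at 8.55 ± 1.22 CPM at E17, 3.82 ± 0.932 at D1, 3.17 ± 1.03 at D21 and 2.89 ± 0.829 at D42 (SD, n = 18). KLHL23 was higher at D42 than at D21 (0.98 ± 0.19, adjusted p = 3.62e-05). PHOSPHO2, which overlaps KLHL23, had 0.22 ± 0.12 at that step. KLHL6, known from B lymphocytes in mice, averaged 3.63 ± 0.666 CPM at E17, 6.10 ± 1.59 at D1, 7.52 ± 1.13 at D21 and 8.67 ± 2.96 at D42 (SD, n = 18) and rose at D1 and D21 (0.74 ± 0.13, adjusted p = 7.88e-07; 0.31 ± 0.13, adjusted p = 0.0281). The 11 leukocyte markers, none of them at 0, had summed levels of 182 to 256 CPM at E17, 62.8 to 172.5 at D1, 1084 to 1741 at D21 and 454 to 4031 at D42; their part in the values of KLHL6 was not tested. Of the 31 KLHL genes, 13 rose and 9 fell at D1 (37.3% and 35.6% of all genes did). At D21 over D1, 8 were higher and 18 lower (36.4% and 36.8% of all genes). At D42 over D21, 5 were higher and 1 lower (17.1% and 15.6% of all genes). KBTBD11 was lower at D42 than at D21 (-0.37 ± 0.12, adjusted p = 0.0143), a call lost without the D42 libraries numbered 3 (adjusted p = 0.117).

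Among the F-box genes, FBXL22 (chromosome 10, 4045345 to 4057326) fell most between E17 and D42. It encodes a cardiac and skeletal muscle adaptor that in rat heart cells acts on alpha-actinin and filamin C. FBXL22 had 200.2, 300.4 and 380.3 CPM at E17, 12.2, 108 and 551 at D1, 8.58, 19.9 and 31.3 at D21 and 9.34, 28.0 and 85.7 at D42 (lowest, median and highest library). At D1 the libraries spread from 12.2 to 551 CPM. The fall was -1.14 ± 0.25, adjusted p = 5.14e-05 at D1 and -2.76 ± 0.27, adjusted p = 1.85e-14 at D21 over D1, and by D42 no library reached the lowest E17 value (-3.25 ± 0.27, adjusted p = 2.48e-17). D42 against D21 (0.65 ± 0.25, adjusted p = 0.0408) was no longer past the threshold without the D42 libraries numbered 3 (adjusted p = 0.149). HERC1, which overlaps it, had 0.34 ± 0.06 at D1 over E17 and -0.03 ± 0.06 at D21 over D1.

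FBXW7, the adaptor for cyclin E, MYC, JUN and Notch, fell at the same 2 steps. The lowest, median and highest FBXW7 values were 41.3, 56.5 and 80.3 CPM at E17, 11.7, 24.3 and 44.2 at D1, 6.84, 9.64 and 11.9 at D21 and 6.48, 9.58 and 22.8 at D42. Neighbouring stages overlapped. The changes were -1.16 ± 0.12, adjusted p = 9.77e-13 and -1.47 ± 0.13, adjusted p = 2.29e-16, and every D42 library lay below every E17 library. FBXL2, which in human cells acts on a regulatory subunit of PI3 kinase, averaged 73.0 ± 12.4 CPM at E17, 28.5 ± 8.41 at D1, 13.6 ± 2.54 at D21 and 16.3 ± 3.85 at D42 (SD, n = 18) and fell by 1.36 ± 0.11, adjusted p = 6.19e-17 at D1 and by 1.06 ± 0.11, adjusted p = 7.57e-13 at D21. FBXO5, the inhibitor of the anaphase-promoting complex also called EMI1, averaged 13.8 ± 3.47 CPM at E17, 13.0 ± 5.53 at D1, 5.52 ± 1.87 at D21 and 6.39 ± 1.84 at D42 (SD, n = 18) and fell at D21 (-1.23 ± 0.16, adjusted p = 2.5e-10). Markers of myoblasts and satellite cells, 7 of 8 in the table and none at 0, had medians of summed CPM of 847, 817, 481 and 430 from E17 to D42. Over the same stages fibroblast markers had 50030, 14330, 18780 and 13860, Schwann and neural markers 538, 680, 132 and 92.6, and red cell markers 997, 282, 247 and 80.9; the part of these cells in the falls described here was not tested.

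Rises among F-box genes were mostly smaller than those of the ASB family. FBXO22, which acts on KDM4 histone demethylases, did not pass at D1 (0.13 ± 0.10, adjusted p = 0.234) and rose afterwards. For FBXO22 the values were 47.3, 56.4 and 65.8 CPM at E17, 36.6, 64.3 and 90.9 at D1, 135, 191 and 222 at D21 and 145, 224 and 511 at D42, each time as lowest, median and highest. The D21 libraries lay wholly above the D1 libraries (1.55 ± 0.10, adjusted p = 3.92e-22). FBXO9, known for the turnover of TEL2 and TTI1, rose by 1.44 ± 0.09, adjusted p = 1.07e-21 at D21. FBXO30 and FBXO31 have been linked to muscle wasting in mice. FBXO30 averaged 36.4 ± 5.17 CPM at E17, 145 ± 100.1 at D1, 122 ± 27.0 at D21 and 116 ± 53.9 at D42 (SD, n = 18), with its rise at D1 (1.97 ± 0.18, adjusted p = 6.61e-15), and FBXO31 averaged 45.7 ± 3.24 CPM at E17, 75.1 ± 14.6 at D1, 138 ± 22.1 at D21 and 183 ± 51.5 at D42 (SD, n = 18), with rises at all 3 steps. FBXO21, of the same mouse work, fell at D21 over D1 (-0.30 ± 0.05, adjusted p = 1.95e-07). FBXL5, the iron-dependent adaptor for IRP2, rose at D1 (1.34 ± 0.12, adjusted p = 3.69e-16), as did FBXL4, whose loss depletes mitochondrial DNA in humans (1.32 ± 0.14, adjusted p = 7.52e-13). FBXL21, an adaptor for cryptochromes, and the beta-TrCP gene FBXW11 were both higher at D42 than at E17 (0.58 ± 0.09, adjusted p = 3.92e-08; 0.71 ± 0.05, adjusted p = 3.17e-20). FBXW4 and FBXW11 rose at each of the 3 steps, with FBXW4 means of 44.4 CPM at E17, 60.2 at D1, 70.5 at D21 and 94.3 at D42.

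The 6 genes lower at D42 than at D21 were ASB7, KBTBD11 and 4 others. These were KLHL4, which changed most of the 6 (-0.77 ± 0.19, adjusted p = 0.000975), FBXL12 (-0.21 ± 0.07, adjusted p = 0.0123; adjusted p = 0.118 without the D42 libraries numbered 3), FBXO28 (-0.13 ± 0.05, adjusted p = 0.0262) and KBTBD2 (-0.12 ± 0.05, adjusted p = 0.0356). KBTBD2, which in mice acts on the PI3 kinase subunit p85alpha, and FBXO28 missed the threshold with other size factors, with no filter and with DESeq2. FBXO39, higher at D42 than at D21 (0.68 ± 0.16, adjusted p = 0.000564), averaged 17.4 ± 3.16 CPM at E17, 13.4 ± 7.21 at D1, 11.1 ± 3.75 at D21 and 18.1 ± 8.30 at D42 (SD, n = 18). TEKT1 and SMTNL2, which overlap FBXO39, had 0.87 ± 0.22 and 0.40 ± 0.17 at D42 over D21.

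The adaptors not yet named mostly differed less between D42 and E17. FBXO48 (2.15 ± 0.11, adjusted p = 1.16e-26), FBXO44 (1.30 ± 0.11, adjusted p = 7.03e-17) and FBXL15, which acts on the ubiquitin ligase SMURF1 in human cells (1.13 ± 0.08, adjusted p = 1.86e-20), were more than 2-fold higher at D42. FBXO33, FBXW5, FBXO8, KBTBD8, FBXO18, KBTBD4, FBXO4, KLHL28, FBXL14, FBXO42, FBXO3, FBXL18, FBXW2 and KLHL12 were higher by 0.93 log2 units or less. KLHL14 was more than 2-fold lower (-1.23 ± 0.16, adjusted p = 4.91e-10). ASB3, KLHL9, KLHL42, FBXL7, KLHL8, KLHL5, KLHL15, FBXO11, FBXL8, FBXO7 and ASB6 were lower by between 0.16 (ASB6) and 0.87 (ASB3) log2 units. KBTBD3, KLHL2, KLHL7, KLHL18, KLHL20, KLHL26 and FBXO2 did not pass, with values from -0.16 (KBTBD3) to 0.12 (KLHL7). Of the rarest genes, KLHL35, FBXL13, FBXL16, FBXO15 and FBXO16 passed as lower at D42, but all averaged under 1 CPM over the 72 libraries, and KLHL35 had no count in 10 of 18 D42 libraries.

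The 16 measured genes of a list of adaptors enriched in skeletal or cardiac muscle can be set beside the other 83. At D1 over E17, 12 of the 16 rose and 4 fell, with a median log2 fold change of 1.27. Of the 83 others, 40 rose and 22 fell, with a median of 0.17 (37.3% of all genes rose and 35.6% fell). At D21 over D1, 8 of the 16 were higher and 7 lower (median 0.17), where 36.4% and 36.8% of all genes were. Of the others, 27 were higher and 34 lower (median -0.02). At D42 over D21, 8 of the 16 passed, all higher (median 0.39), where 17.1% of all genes were higher and 15.6% lower. Of the others, 16 were higher and 6 lower (median 0.05). The 8 were ASB12, ASB14, ASB18, FBXL22, KBTBD12, KBTBD13, KLHL30 and KLHL34. Without the D42 libraries numbered 3, 6 of the 16 passed, KLHL34 and FBXL22 being lost, against 18 higher and 5 lower of the others (medians 0.26 and 0.02). The share of all genes in that fit is not given here. The summed level of the 16 genes averaged 1618 ± 148 CPM at E17, 2823 ± 438 at D1, 3468 ± 475 at D21 and 3690 ± 1238 at D42 (SD, n = 18 each). The D42 libraries numbered 3 held 4759 CPM in crossbred, 6413 in Cornish and 6056 in White Plymouth Rock muscle, and the other 15 averaged 3280 ± 818 CPM (SD), below the D21 mean. To this sum KLHL31 contributed means of 726 CPM at E17, 1595 at D1, 2252 at D21 and 2162 at D42. Fibre markers, 10 of 14 in the table, had medians of summed CPM of 25650, 43920, 80810 and 71900 over the same stages; their part in these changes was not tested. KLHL33, KLHL40, KLHL41, ASB16 and FBXO40 of the list were not analysed here.

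Summed over whole families, every family but the leucine-rich F-box (FBXL) genes had a higher mean at D42 than at E17. The lower sum of the FBXL genes rested on FBXL22. The 15 FBXL genes together averaged 617 ± 53.4 CPM at E17, 511 ± 123 at D1, 371 ± 38.6 at D21 and 374 ± 39.4 at D42. The 16 ASB genes averaged 421 ± 35.6, 648 ± 139, 1174 ± 310 and 1319 ± 483 CPM at those stages, and the 24 FBXO genes 672 ± 14.6, 935 ± 138, 1112 ± 82.9 and 1212 ± 213 CPM (SD, n = 18 each). ASB sums at E17 reached at most 491 CPM and at D21 at least 805 CPM, so these stages did not overlap. To the ASB sum ASB2 contributed means of 82.4 CPM at E17, 272 at D1, 446 at D21 and 459 at D42. KLHL sums averaged 1892 ± 153 CPM at E17 and 3566 ± 960 at D42 (SD). KBTBD sums averaged 124 ± 7.7 CPM at E17 and 261 ± 67.8 at D42, and FBXW sums 290 ± 18.3 and 408 ± 63.3 CPM (SD). FBXL22 alone averaged 301 ± 52.3 CPM at E17, 139 ± 128 at D1, 20.6 ± 5.81 at D21 and 32.3 ± 17.8 at D42. Without it the other 14 FBXL genes averaged 316 ± 20.0 CPM at E17, 372 ± 43.5 at D1, 350.2 ± 37.6 at D21 and 341 ± 37.7 at D42, so that the later means lay above that of E17. By gene, 8 of the 15 FBXL genes rose and 5 fell at D1 (37.3% and 35.6% of all genes did). At D42, 7 were higher and 7 lower than at E17 (40% and 41.2% of all genes). No test was made on these sums.

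Shorter lists gave mixed pictures. Of 7 measured adaptors that act in the cell cycle, 3 rose and 3 fell at D1 (37.3% and 35.6% of all genes did). Their log2 fold changes ran from -1.16 to 1.06, with a median of -0.10. At D21 over D1, 3 were higher and 4 lower (36.4% and 36.8% of all genes), with a median of -0.47. Of the 3 measured adaptors linked to wasting in mice, FBXO30 and FBXO31 were higher and FBXO21 lower at D42 than at E17 (1.64 ± 0.18, adjusted p = 1.72e-12; 2.00 ± 0.10, adjusted p = 2.48e-28; -0.30 ± 0.05, adjusted p = 2.04e-07).

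Some adaptor genes lie close together on the GRCg7b assembly and had different courses. KLHL6 (chromosome 9, 2180307 to 2198724) and KLHL24 (2205639 to 2224971) are 6914 bases apart. Both rose at D1, and KLHL24 fell back at D21 while KLHL6 rose further. ASB11 (chromosome 1, 122205406 to 122222010) and ASB9 (122230614 to 122244721) are 8603 bases apart. At D1 ASB11 rose 16.0-fold on the fitted scale, and ASB9 had a log2 fold change of 0.23 ± 0.20, adjusted p = 0.298. Between E17 and D42 both ASB11 and ASB9 were called higher. FBXO21 and FBXW8, 5918 bases apart on chromosome 15 with the start of 1 other protein-coding gene between them, differed between D42 and E17 in opposite directions (-0.30 ± 0.05, adjusted p = 2.04e-07; 0.79 ± 0.07, adjusted p = 7.04e-17). KLHL10 and KLHL11, 170 bases apart on chromosome 27, did so too (0.65 ± 0.29, adjusted p = 0.0327; -0.54 ± 0.09, adjusted p = 1.92e-07), with KLHL10 averaging under 1 CPM.

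Of 19 measured cullins and core partners of cullin-RING ligases, 14 rose and 3 fell at D1 over E17. Of all genes, 37.3% rose and 35.6% fell. The 19 include CUL2, CUL4A, CUL4B and DDB1, which are not among the partners of these adaptors given above. CUL2, CUL4A, CUL4B and DDB1 each passed as higher at D1 and at D42 over E17. At D42, 17 of the 19 were higher and 1 lower than at E17, where 40% of all genes were higher and 41.2% lower. TCEB1 was the lower one (-0.42 ± 0.08, adjusted p = 2.7e-06), and SKP1 did not pass (0.10 ± 0.05, adjusted p = 0.0505). CUL3, the scaffold for KLHL and KBTBD proteins, averaged 111 ± 6.08 CPM at E17, 215 ± 60.9 at D1, 314 ± 33.9 at D21 and 403 ± 129 at D42 (SD, n = 18), with a log2 fold change of 1.86 ± 0.11, adjusted p = 9.35e-25 at D42 over E17. CUL5, the scaffold for ASB proteins, averaged 55.9 ± 3.85 CPM at E17, 68.2 ± 10.1 at D1, 116 ± 14.5 at D21 and 146 ± 47.7 at D42 (SD, n = 18) and changed by 1.38 ± 0.09, adjusted p = 2.22e-22 over that span. ARIH2, its partner ligase, averaged 27.5 ± 2.23 CPM at E17, 49.2 ± 13.0 at D1, 132 ± 19.7 at D21 and 159 ± 42.0 at D42 (SD, n = 18), with 2.53 ± 0.10, adjusted p = 2.69e-32. Of 21 measured genes of the NEDD8 cycle, the COP9 signalosome and CAND exchange, 18 were higher and 2 lower at D42 than at E17, beside the same 40% and 41.2% of all genes. The 2 lower ones were CAND1 (-0.71 ± 0.07, adjusted p = 1.07e-13) and DCUN1D4 (-0.47 ± 0.10, adjusted p = 4.14e-05). CAND2, the muscle-enriched exchange factor, averaged 103 ± 13.7 CPM at E17, 440.1 ± 123 at D1, 558 ± 98.4 at D21 and 663 ± 222 at D42 (SD, n = 18), with 2.68 ± 0.12, adjusted p = 4.22e-30 at D42 over E17, and the signalosome genes COPS5 and COPS3 had 2.55 ± 0.09, adjusted p = 8.87e-35 and 2.37 ± 0.08, adjusted p = 6.43e-36.

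Of 21 measured adaptors of the same kinds under other symbols, 14 were higher and 3 lower at D42 than at E17 (40% and 41.2% of all genes); at D1 the SOCS genes SOCS3 (2.52 ± 0.23, adjusted p = 2.8e-15) and CISH (2.33 ± 0.13, adjusted p = 5.07e-24) rose most. Of 26 measured substrates and partners, 18 were higher and 3 lower at D42 than at E17. NEB, which encodes the thin filament protein nebulin, averaged 2527 ± 359 CPM at E17, 4730.1 ± 620.0 at D1, 8748 ± 1326 at D21 and 9928 ± 3691 at D42 (SD, n = 18), with 1.97 ± 0.11, adjusted p = 5.19e-25 at D42 over E17. PLK1, the substrate of KLHL22, was lower at D42 (-2.48 ± 0.30, adjusted p = 3.85e-11), and JAK3, a kinase reported as an ASB2 target in mammalian cells, was higher (4.02 ± 0.21, adjusted p = 3.22e-27). Of the 11 leukocyte markers 10 were also higher at D42 than at E17, with a median log2 fold change of 3.99 (edgeR), and their part in the value of JAK3 was not tested.

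The second question was whether the parent breeds differed. Cornish and White Plymouth Rock libraries were compared within each stage, with the 18 libraries of the stage fitted together. At E17, 3 of 99 adaptors passed, all lower in Cornish, where 3.72% of all 11717 genes tested did; 19 adaptors and 2323 genes had an unadjusted p under 0.05. FBXL2 (chromosome 2, 44489307 to 44541326) had lowest, median and highest values of 50.6, 64.3 and 70.6 CPM in Cornish libraries and 71.1, 81.3 and 101 CPM in White Plymouth Rock libraries. The breeds did not overlap, and the log2 fold change was -0.41 ± 0.10, adjusted p = 0.0333. FBXO9 had 33.7, 35.8 and 43.1 CPM in Cornish libraries and 40.5, 44.7 and 51.9 CPM in White Plymouth Rock libraries, with overlap (-0.29 ± 0.08, adjusted p = 0.0389). FBXO34 had 35.2, 39.1 and 51.0 CPM in Cornish libraries and 46.2, 47.9 and 57.4 CPM in White Plymouth Rock libraries, also with overlap (-0.31 ± 0.08, adjusted p = 0.0479). When each of the 12 libraries was left out in turn, FBXL2 passed in 6 fits, FBXO9 in 3 and FBXO34 in 1. FBXL2 missed the threshold without Cornish library 1, 2 or 5 or White Plymouth Rock library 4, 5 or 6 (adjusted p = 0.0564 to 0.0725). FBXO9 kept it only without Cornish library 3 or 6 or White Plymouth Rock library 5 (elsewhere 0.0529 to 0.0911), and FBXO34 only without Cornish library 6 (elsewhere 0.0592 to 0.108). With all 72 libraries in the fit none of the 3 passed (adjusted p = 0.665 for FBXL2, 0.799 for FBXO9 and 0.867 for FBXO34), and with the replicate number as a block FBXO9 (0.0664) and FBXO34 (0.053) did not. FBXO34 also missed the threshold in edgeR with only the 2 breeds fitted (adjusted p = 0.0769) and with no filter (adjusted p = 0.0512). At E17, 5 of 6 red cell markers were higher in Cornish libraries (median log2 fold change 0.74) 2 of 12 endothelial and pericyte markers were higher and 3 of 6 skin markers lower, and their part in these differences was not tested.

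**Figure D4:**
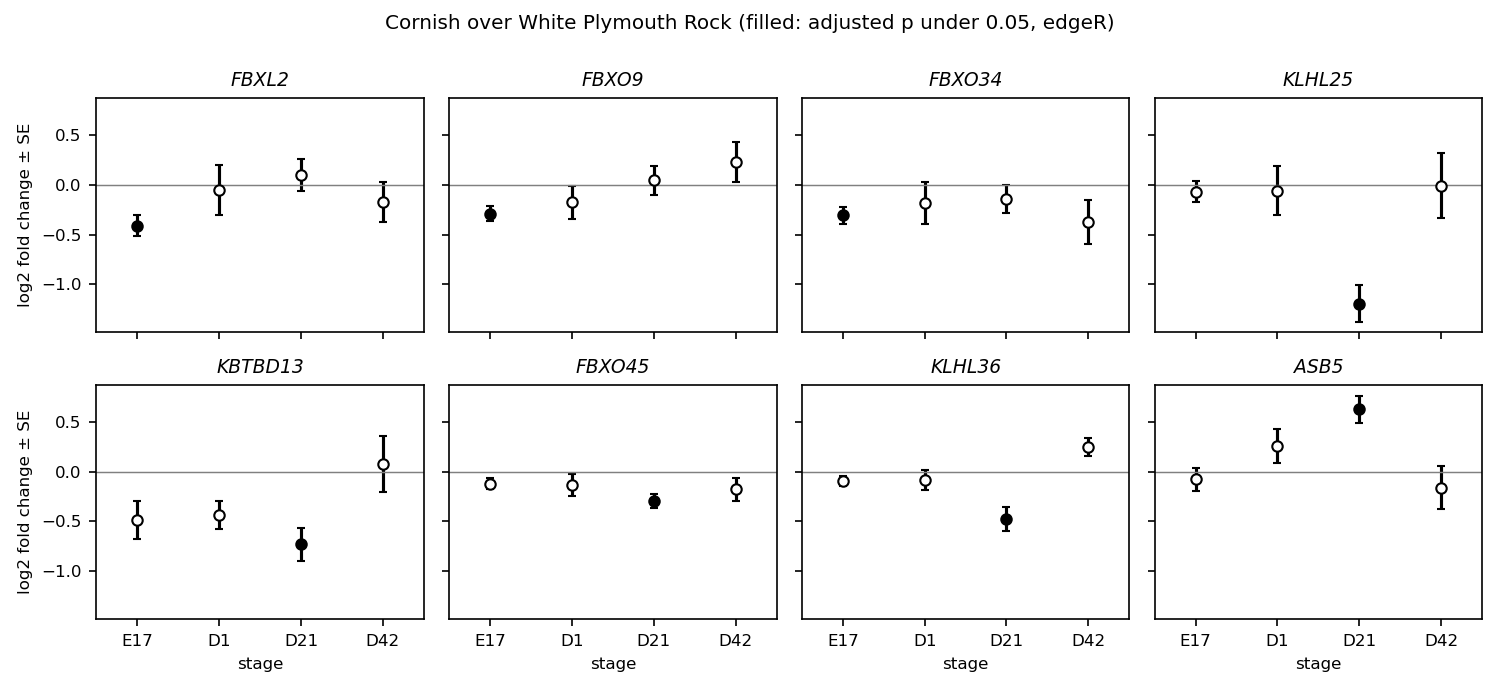
Log2 fold change of Cornish over White Plymouth Rock with its standard error at each stage for the 8 adaptors that passed at E17 or D21 (filled points: adjusted p under 0.05). KLHL25 is at -1.19 at D21 and between -0.07 and -0.01 at the other stages.

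At D21, 5 of 97 adaptors passed, 1 higher and 4 lower in Cornish, where 2.93% of all 11513 genes did. An unadjusted p under 0.05 was found for 20 adaptors and for 2091 of the 11513 genes. KLHL25 (chromosome 10, 13964724 to 13987441), an adaptor for hypophosphorylated 4E-BP1 and for ATP-citrate lyase in human cells, had the largest difference. Its lowest, median and highest values were 9.72, 11.5 and 15.1 CPM in Cornish libraries and 20.0, 25.5 and 46.4 CPM in White Plymouth Rock libraries, with 14.0, 20.1 and 23.5 CPM in crossbred libraries. No Cornish library reached the lowest White Plymouth Rock value (-1.19 ± 0.18, adjusted p = 0.00306). It passed in 12 of 12 fits without a library (log2 fold change -1.27 to -0.98). AKAP13, which overlaps KLHL25, had -0.06 ± 0.09 in the same comparison. The authors' deposited table, whose fold changes run White Plymouth Rock over Cornish, lists KLHL25 at 1.19 ± 0.198 (SE).

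KBTBD13 (chromosome 10, 17784715 to 17789579) was also lower in Cornish at D21 without overlap, at 6.40, 7.94 and 11.6 CPM in Cornish and 11.8, 13.0 and 17.1 CPM in White Plymouth Rock libraries (-0.73 ± 0.17, adjusted p = 0.0227); without Cornish library 2 the adjusted p was 0.0527, and with all 72 libraries in the fit it was 0.0581. ASB5 was the one adaptor higher in Cornish, at 81.2, 108 and 131 CPM in Cornish against 52.5, 67.7 and 92.4 CPM in White Plymouth Rock libraries (0.62 ± 0.14, adjusted p = 0.0198); without White Plymouth Rock library 3 the adjusted p was 0.0501. The breeds overlapped in ASB5 over a narrow range. FBXO45, an F-box protein known from synapse formation, had 50.2, 51.5 and 60.2 CPM in Cornish and 59.2, 65.0 and 73.0 CPM in White Plymouth Rock libraries (-0.29 ± 0.07, adjusted p = 0.0289). KLHL36 had 17.4, 18.8 and 22.3 CPM in Cornish and 21.8, 26.2 and 31.8 CPM in White Plymouth Rock libraries (-0.47 ± 0.12, adjusted p = 0.0371). In FBXO45 and KLHL36 the breeds overlapped slightly. WDR53, whose span overlaps that of FBXO45, had -0.25 ± 0.12 in the same comparison. RASL12, which overlaps KBTBD13, had -0.31 ± 0.28, and SPCS3, which overlaps ASB5, had -0.09 ± 0.07. FBXO45 passed in 5 of 12 fits without a library and KLHL36 in 4. FBXO45 missed the threshold without Cornish library 1, 2, 3 or 4 or White Plymouth Rock library 4, 5 or 6 (adjusted p = 0.0511 to 0.066), with the replicate number as a block (0.0589), with all 72 libraries in the fit (0.06) and with only the 2 breeds fitted (0.0631). KLHL36 missed it with only the 2 breeds fitted (adjusted p = 0.0501) and without Cornish library 1, 2, 3, 5 or 6 or White Plymouth Rock library 3, 4 or 6 (adjusted p = 0.054 to 0.0869). At D21 the fibre, myoblast, fibroblast and red cell markers gave no call between these breeds. Of the other cell types, 1 of 11 leukocyte and 1 of 4 tested skin markers were higher in Cornish, and of 12 endothelial and pericyte markers 1 was higher and 1 lower; their part in these differences was not tested.

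**Figure D5:**
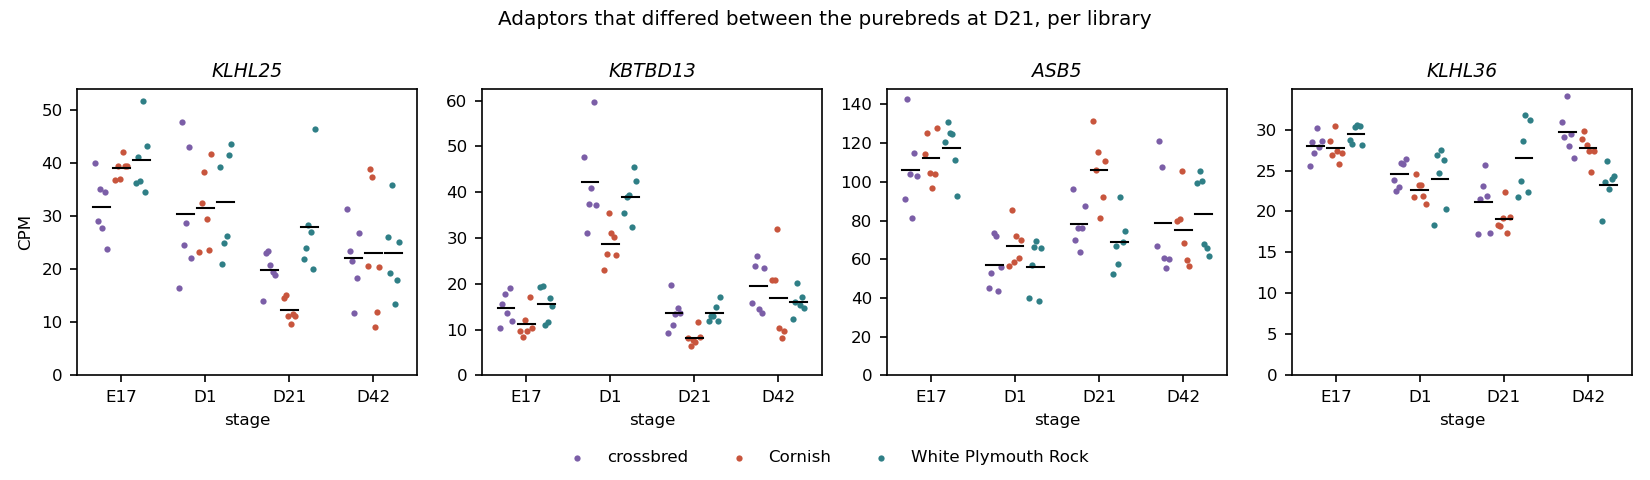
CPM of KLHL25, KBTBD13, ASB5 and KLHL36 in each library, by stage and breed, on axes that start at 0; points are libraries and bars are means of 6. At D21 the 6 Cornish libraries of KLHL25 lie between 9.72 and 15.1 CPM, below all 6 White Plymouth Rock libraries.

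At D1, 0 of 99 adaptors passed by edgeR's quasi-likelihood test (0% of all 11566 genes tested), and DESeq2 called 1, FBXL21. The share of all genes that DESeq2 called is not given here. An unadjusted p under 0.05 (edgeR) was found for 3 adaptors and for 1002 of the 11566 genes. FBXL21 had 33.7, 37.4 and 46.5 CPM in Cornish libraries and 14.6, 23.9 and 34.3 CPM in White Plymouth Rock libraries (0.64 ± 0.17, adjusted p = 0.204). With all 72 libraries in the edgeR fit FBXL21 passed at D1 (adjusted p = 0.0198). KBTBD13 came next (-0.44 ± 0.14, adjusted p = 0.381). At D42, 0 of 96 passed (0.0347% of all 11532 genes), and DESeq2 called 0. An unadjusted p under 0.05 (edgeR) was found for 12 adaptors and for 978 of the 11532 genes. Nearest were FBXL20 (-0.53 ± 0.14, adjusted p = 0.286) and FBXO25 (0.60 ± 0.21, adjusted p = 0.411). With all 72 libraries in the edgeR fit FBXL20 passed at D42 (adjusted p = 0.00915). On simulated counts with a 2-fold change, the test recovered 44.3% of changed genes at D42 and 61% at D1, against 84.8% at E17 and 83.7% at D21. With a change of 0.5 log2 units it recovered 9.18% at D42 and 11% at D1, against 58% at E17 and 27% at D21. Most breed differences called above were smaller than 2-fold.

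Whether a breed difference itself varied with stage was tested across the 72 libraries. An unadjusted p under 0.05 was found for 11 adaptors and for 1343 of the 11932 genes tested. KLHL36 alone passed among the adaptors (adjusted p = 0.0159, edgeR's quasi-likelihood test with Benjamini-Hochberg adjustment), where 0.268% of all genes did. Its log2 fold change of Cornish over White Plymouth Rock was -0.10 ± 0.05, adjusted p = 0.33 at E17, -0.09 ± 0.10, adjusted p = 0.846 at D1, -0.47 ± 0.12 at D21 and 0.25 ± 0.09, adjusted p = 0.465 at D42. Cornish means at these 4 stages were 27.7, 22.6, 19.1 and 27.7 CPM, and White Plymouth Rock means were 29.4, 24.0, 26.6 and 23.3 CPM. KLHL25 did not pass this test (adjusted p = 0.145), so its D21 difference is not shown to differ from those at other stages.

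The third question was whether crossbred muscle departed from its parents. The crossbred was compared with Cornish, with White Plymouth Rock and with the mean of both at each stage, and these comparisons share the crossbred libraries. No adaptor passed in any of the 12 comparisons by edgeR's quasi-likelihood test. Of all genes tested, 0.0171%, 0%, 0.122% and 0% passed against Cornish at E17, D1, D21 and D42, 0.00853% against White Plymouth Rock at E17, and 0% in the other comparisons. Adaptors with an unadjusted p under 0.05 numbered 12, 6, 16 and 0 against Cornish, 5, 1, 5 and 9 against White Plymouth Rock, and 4, 3, 8 and 5 against the mean of the parents, at E17, D1, D21 and D42 in turn. All genes under that p numbered 1244, 674, 1188 and 240 against Cornish and 1078, 663, 539 and 580 against White Plymouth Rock. Against the mean of the parents they numbered 671, 570, 389 and 248, of 11717, 11566, 11513 and 11532 genes tested. DESeq2 called 5 adaptors against Cornish at D21, among them KBTBD13 (adjusted p = 0.00874) and FBXL22 (adjusted p = 0.0199). It called 1 against White Plymouth Rock at E17, KLHL3 (adjusted p = 0.00785), and none in the other comparisons with either parent. The shares of all genes that DESeq2 called are not given here, so its counts have no background beside them.

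Nearest to the threshold was KBTBD13 at D21, at 9.31, 13.5 and 19.7 CPM in crossbred libraries against 6.40, 7.94 and 11.6 CPM in Cornish libraries (0.73 ± 0.17, adjusted p = 0.0866). At D1 it gave 0.56 ± 0.14, adjusted p = 0.545. FBXL22 against Cornish at D21 gave 0.71 ± 0.18, adjusted p = 0.137. KLHL25 in crossbred libraries at D21 lay between the parents, with log2 fold changes of 0.71 ± 0.18, adjusted p = 0.148 against Cornish and -0.49 ± 0.18, adjusted p = 0.915 against White Plymouth Rock. At E17, KLHL3 had 16.2, 17.1 and 17.7 CPM in crossbred and 11.8, 13.6 and 14.3 CPM in White Plymouth Rock libraries without overlap (0.34 ± 0.08, adjusted p = 0.15). NPY6R and RBMXL3, whose spans overlap that of KLHL3, had 0.01 ± 0.50 and -0.004 ± 0.064 in the same comparison. KLHL4 against Cornish at E17 gave -0.41 ± 0.13, adjusted p = 0.323. FBXO39 against Cornish at D1 gave 0.93 ± 0.30, adjusted p = 0.669, where crossbred library 1, the shallowest, held 38.5 CPM and the other 5 held 8.89 to 18.7 CPM. KLHL36 against White Plymouth Rock at D42 gave 0.34 ± 0.09, adjusted p = 0.671 without overlap. FBXL15 against Cornish at E17 (0.18 ± 0.07, adjusted p = 0.389), FBXO18 against White Plymouth Rock at D1 (-0.34 ± 0.18, adjusted p = 0.885), FBXL20 and FBXL14 against Cornish at D42 (0.25 ± 0.14, adjusted p = 0.999; 0.19 ± 0.12, adjusted p = 0.999), FBXO15 against the mean of the parents at D42 (0.96 ± 0.42, adjusted p = 1), KBTBD2 against White Plymouth Rock at D21 (-0.21 ± 0.07, adjusted p = 0.887) and ASB9 against White Plymouth Rock at D42 (1.15 ± 0.34, adjusted p = 0.767) did not reach it either. Of all the crossbred values named here, none passed by edgeR's quasi-likelihood test. DESeq2 called 3 of them: KBTBD13 and FBXL22 against Cornish at D21 and KLHL3 against White Plymouth Rock at E17.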

How the data were processed

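Breast muscle RNA of 72 libraries was analysed. The authors deposited 1 table of whole-number estimated counts per gene and, for breed pairs at each stage, tables of a mean signal, log2 fold changes and log2 standard errors, a test score and p-values; per the submitters' processing notes, cutadapt 4.4, HISAT2 2.2.1, StringTie and the GRCg7b build were used. The strand setting is not given in the sources used here, so reads of overlapping genes cannot be told apart. On GRCg7b, 34 of the adaptors overlapped another protein-coding gene, and the overlapping genes are named above for only some of them. In the deposited counts, 32.9% of values from 1 to 20 are multiples of 4. The authors' tables list fold changes as the second-named breed over the first and hold no p-value above 0.05.

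Counts were filtered with filterByExpr, scaled by TMM and tested with edgeR 4.0.16 (quasi-likelihood, Benjamini-Hochberg adjustment over all genes tested, threshold 0.05) in R 4.3.3; the standard error is the log2 fold change over the square root of F. Stages were compared over 72 libraries with breed by stage groups, breeds over the 18 libraries of a stage. Consecutive steps share the libraries of the stage between them. Tests were checked on simulated counts. DESeq2 1.42.0, other size factors, other filters, a replicate block, other sets of samples and leaving out libraries were the alternatives. Named were all measured adaptors on the muscle list, per step the 6 of largest change each way with at least 1 CPM, called members between breeds, and where none was called the 2 of smallest p; the named partners and other members came from lists or were chosen after their values were seen. Levels per transcript length could not be computed, so single genes are not ranked by level. The summed CPM of lists and families, and the parts of FBXL22, KLHL31 and ASB2 in them, are not adjusted for transcript length. The members, lists and tests were chosen with earlier results of these data known. One of the 99 adaptors stays in the counts and is otherwise not reported here. Of the 99 symbols, 97 matched RefSeq's GRCg7b gene table.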

Additional observations from a re-analysis of the deposited data

Results flagged for a closer look

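In 62 groups of 6 libraries behind the breed comparisons described above, 8 had a library whose gap to its nearest neighbour was large for the range of the group by Dixon's criterion; chance gives about 1 group in 20. The 8 single libraries were FBXO34 in Cornish library 6 at E17 (50.97 CPM, the others 35.22 to 40.7 CPM) and in White Plymouth Rock library 3 at E17 (57.4 CPM, the others 46.2 to 49.11 CPM), KLHL3 in White Plymouth Rock library 6 at E17 (11.77 CPM, the others 13.39 to 14.32 CPM), and FBXO39 in crossbred library 1 at D1 (38.52 CPM, the others 8.891 to 18.69 CPM). The rest were FBXO18 in White Plymouth Rock library 1 at D1 (23.95 CPM, the others 10.94 to 13.15 CPM), KLHL25 in White Plymouth Rock library 6 at D21 (46.38 CPM, the others 19.97 to 28.34 CPM), FBXL15 in White Plymouth Rock library 5 at D21 (51.36 CPM, the others 31.75 to 36.37 CPM) and ASB9 in White Plymouth Rock library 6 at D42 (3.372 CPM, the others 1.055 to 1.773 CPM). Without White Plymouth Rock library 6 the D21 difference of KLHL25 still passed.

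The Cornish and White Plymouth Rock difference in KLHL36 differed between stages by the interaction test (adjusted p = 0.01588, edgeR), with a log2 fold change of -0.47 at D21 and 0.25 at D42, the second not past the threshold.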

How the results depend on the processing

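Among 123 values for named genes, 1012 alternative values held 929 on the same side of the threshold, 69 no longer past it, 14 newly past it and 0 called values turned in sign. Of the adaptors called between the purebreds (3, 0, 5 and 0 at E17, D1, D21 and D42), DESeq2 gave 7, 1 and 11 at the first 3 stages, a fit of all 72 libraries gave 0 at E17, 1 at D1, 6 at D21 and 2 at D42, and a fit of only the groups compared gave 3 at D21. Leaving out 1 library gave 0 to 3 at E17, 0 at D1 and D42, and 2 to 6 at D21; the count was 0 without Cornish library 1, 2 or 5 or White Plymouth Rock library 4 or 6 at E17, and 2 without Cornish library 2 and 3 without Cornish library 1 or 3 or White Plymouth Rock library 3 at D21. DESeq2 called 5 adaptors in crossbred against Cornish at D21 and 1 against White Plymouth Rock at E17, where edgeR called 0. Adaptors higher at D42 than at D21 in all 3 breeds numbered 2, against 4 with other size factors, 4 with no filter, 4 with DESeq2, 0 when only those stages were fitted and 1 without the D42 libraries numbered 3. The cause of these shifts was not tested. Shares of all genes called are not given for the alternative fits in this section, so their counts have no background beside them. Same-numbered libraries did not deviate together in every pair, so they were not treated as pairs. Their mean correlation was 0.0169, -0.00803, -0.00345 and 0.235 from E17 to D42. At D42 the pairs ran from -0.113 to 0.71, against a mean of -0.0426 for other numbers. A factor shared by some same-numbered D42 libraries was not tested. With the replicate number as a block, 1 adaptor passed at E17, 4 at D21 and the stage steps gave 78, 78, 33 and 85 calls. The count between the purebreds at D42 with this block is not given here. The 6 genes averaging under 1 CPM rest on few counts; an effect of depth on their calls was not tested.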
